A study of Mus musculus with 8 samples.

Results

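The 42 genes described here encode the glutathione and thioredoxin systems, their regulator NRF2 with its partners and targets, the peroxiredoxins, superoxide dismutases and catalase, and the NADPH oxidase. They were chosen by symbol, with earlier results of these data known, and all 42 are among the 18635 genes of the deposited table. The values come from RNA-seq of tumor-educated macrophages (TEMs), which are bone marrow-derived macrophages (BMDMs) kept for 24 h in medium conditioned by AE17, a mouse mesothelioma line. Control TEMs carried *Phgdh* fl/fl and no Cre (4 samples), and PHGDH-deficient TEMs carried *Phgdh* fl/fl with *Cx3cr1*-Cre (4 samples). The floxed *Phgdh* alleles, the culture and the tumor-conditioned medium were shared by both groups. The titles number the samples as replicates of each genotype, and the authors describe them as biologically independent. The Cre was knocked into the *Cx3cr1* locus, so the genotypes differed in *Cx3cr1* as well as in *Phgdh*, and *Cx3cr1* is also active in other myeloid cells. No TEMs with *Cx3cr1*-Cre and unfloxed *Phgdh* were analysed here, so an effect of the Cre allele and one of *Phgdh* loss cannot be told apart.

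PHGDH catalyzes the first step of serine synthesis, and serine can supply the glycine and the cysteine from which, with glutamate, glutathione is built. The comparison asks how the redox genes differ when this step is deleted. Glutathione peroxidases and peroxiredoxins reduce peroxides at the cost of glutathione and thioredoxin, and both carriers are reduced again with NADPH. NRF2, the product of *Nfe2l2*, is held at a low level by KEAP1, and when released it drives many of these genes through antioxidant response elements, at which BACH1 acts as a repressor. In macrophages the NADPH oxidase makes superoxide, so these cells both produce and detoxify oxidants.

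The libraries held between 38219563 and 47027420 reads in genes. *Phgdh* fell from 119, 129, 117 and 105 normalized counts (reads divided by a size factor per sample) in control TEMs to 32.6, 35.3, 14.2 and 26.3 in PHGDH-deficient TEMs (log2 fold change -2.15 ± 0.21 SE, adjusted p = 5.09e-08; exact two-sided permutation test, p = 0.0286, the smallest that 4 against 4 allows). *Cx3cr1*, the Cre locus, was between 999.6 and 1210.4 in control and between 614 and 689.7 in PHGDH-deficient TEMs. All 7 macrophage markers searched for were listed, with a summed level of 986516 to 1075520 in control and 973612 to 1049000 in PHGDH-deficient TEMs. Most of this sum was *Lyz2*, with a mean of 712825, so it says little about the other markers. Of the 7, 3 were lower in PHGDH-deficient TEMs and none higher. These were *Adgre1*, *Itgam* and *Fcgr1* (log2 fold changes -0.084, -0.19 and -0.40). Of 7 neutrophil markers only *S100a8* was listed, at 467 to 575 in control and 576 to 631 in PHGDH-deficient TEMs, while the listed markers of lymphocytes, mast cells and erythroid cells, 1 for each type, were each at most 8.59 in any sample. The 3 of 5 dendritic cell markers that were listed summed to 7.24 to 29.6 in control and 25.9 to 41.7 in PHGDH-deficient TEMs, and the 3 of 7 listed for fibroblasts and mesothelioma to 13.4 to 21.7 and 12.5 to 40.8. The part of these cell types in the results was not tested.

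Of the 42 redox genes, 30 differed between the genotypes at an adjusted p under 0.05 (limma, adjusted over the 13629 genes whose normalized counts averaged 10 or more), 18 higher and 12 lower in PHGDH-deficient TEMs. All 42 passed the filter on low values. Across all genes tested, 41.0% were called, 20.8% higher and 20.3% lower. The members were chosen with earlier results of these data known, so the shares here are set side by side as description, not as a test. For 26 of the 42 the groups did not overlap, meaning that every sample of one genotype lay above every sample of the other, against 36.7% of all genes tested (18.4% higher and 18.2% lower). The share of genes called was larger among abundant genes, to which most members belong. Of the 36 members with a mean of at least 1000 normalized counts, 28 were called and 25 did not overlap, against 56.9% and 51.3% of all genes at that level, a limit chosen after the values were seen. The 28 were 17 higher and 11 lower, against 27.3% and 29.6% of all genes at that level.

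The direction was mixed and the sizes were small. The median log2 fold change of the 42 was 0.0057, beside -0.0018 for all genes tested, and the median absolute value was 0.12, beside 0.12 for all genes. For the 36 members with a mean of at least 1000 normalized counts the median absolute value was 0.122, beside 0.0944 for all genes at that level. The range ran from -0.47 for *Glrx* to 0.65 for *Slc7a11*, and no member reached a doubling. The genes were sorted into 9 roles, and 5 of these held both higher and lower genes. The counts by role below stand beside 20.8% of all genes tested called higher and 20.3% called lower. Because these are bulk samples, fewer cells of a type and less RNA per cell cannot be told apart.

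**Figure D1:**
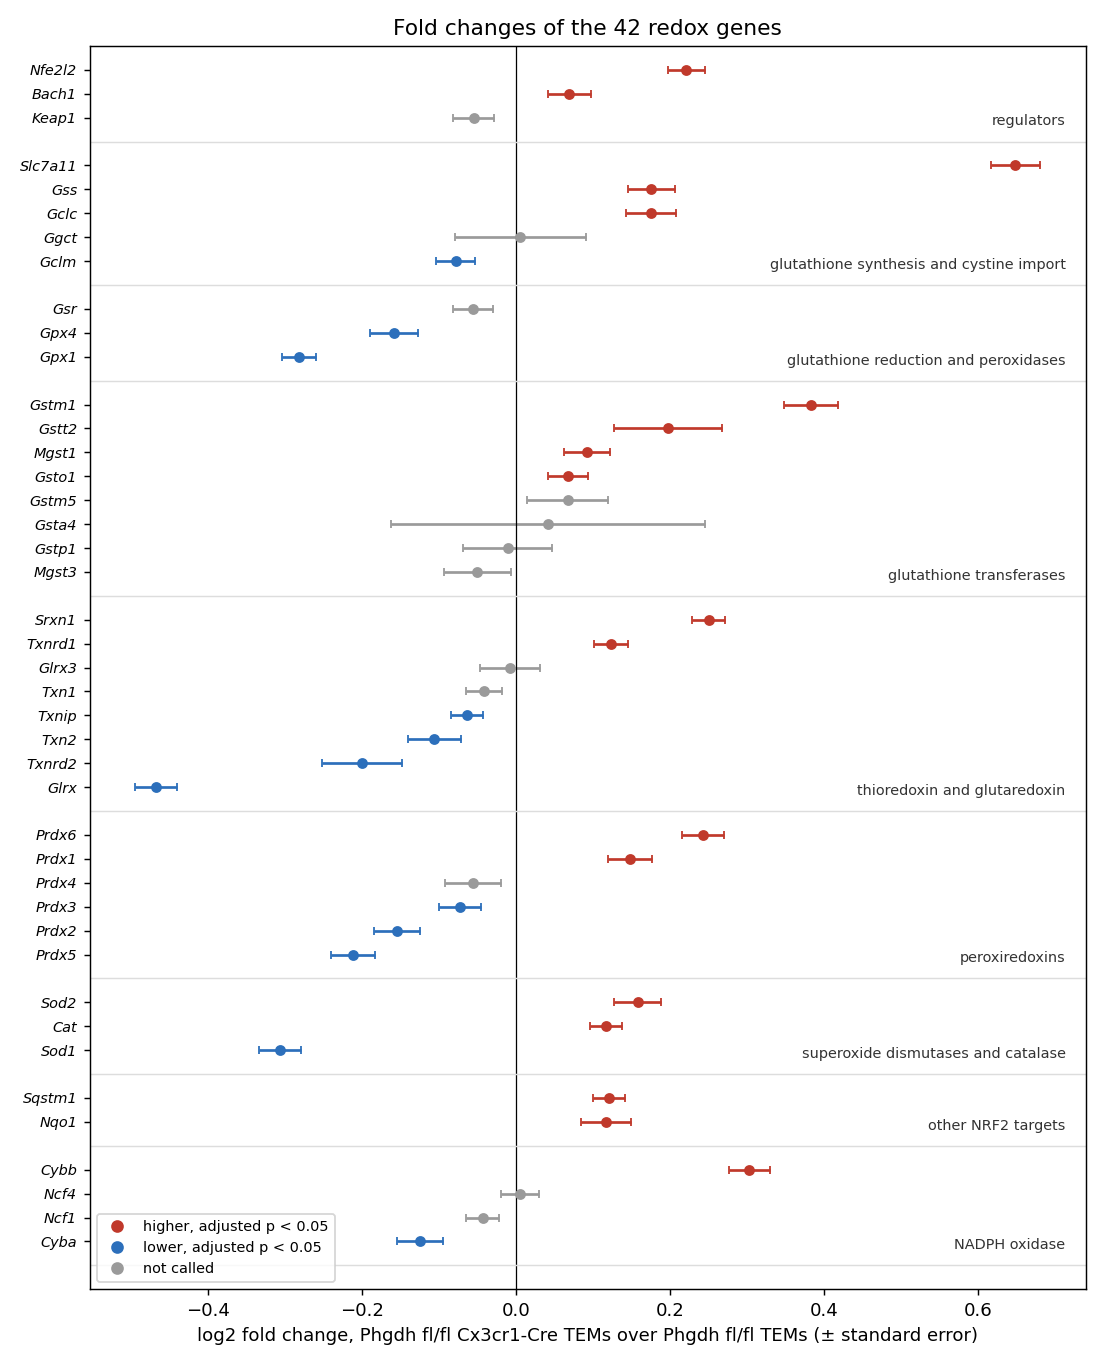
Log2 fold change of each of the 42 genes, PHGDH-deficient over control TEMs (points, with bars of 1 standard error, n = 4 per genotype), sorted by role and colored by the limma call. *Slc7a11* stands at 0.65 and *Glrx* at -0.47, and higher and lower genes sit side by side within the thioredoxin, peroxiredoxin and superoxide dismutase groups.

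Of the 3 regulators, *Nfe2l2* and *Bach1* rose and *Keap1* was not called. *Nfe2l2* (chr2:75675513-75704641, minus strand, GRCm38), the gene of NRF2 itself, was measured at 13766, 14084, 14572 and 14063 normalized counts in control TEMs and at 16725, 16126, 16149.8 and 16857 in PHGDH-deficient TEMs. Every PHGDH-deficient sample lay above every control sample, with the first and last replicates the highest. The mean was 16.6% higher (log2 fold change 0.22 ± 0.024 SE, adjusted p = 1.73e-07). *Keap1*, the adaptor that hands NRF2 to the ubiquitin ligase, was at 3496, 3389, 3506 and 3389 in control and 3386, 3288, 3272 and 3321 in PHGDH-deficient TEMs. Its groups did not overlap, the PHGDH-deficient samples being lower by a narrow margin, yet it missed the threshold (log2 fold change -0.055 ± 0.026 SE, adjusted p = 0.104). It passed under quantile normalization (0.0296) and with a correction for GC content and exon length (0.0188).

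*Bach1*, the heme-sensing repressor at the same elements, was at 9140.5, 8954, 8569 and 8337 in control and 9010.2, 9343, 9347 and 9013 in PHGDH-deficient TEMs. The groups overlapped, with control replicate 1 inside the PHGDH-deficient range, and the difference was small (log2 fold change 0.070 ± 0.028 SE, adjusted p = 0.0483). The call did not hold without control replicate 3 (0.128), control replicate 4 (0.194), PHGDH-deficient replicate 2 (0.131), PHGDH-deficient replicate 3 (0.124) or PHGDH-deficient replicate 4 (0.0518), where here and below the value after a replicate is the adjusted p with that 1 sample left out, and it was also lost in both count-based tests (0.0532 by edgeR and 0.054 by DESeq2).

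The antioxidant response element core (TGACNNNGC, searched on both strands as itself and as GCNNNGTCA) was looked for from 250 bases before to 50 bases after each start site in the RefSeq promoters of GRCm38.p6. Of the 42 genes 36 had an entry, and 9 of these held the core in at least 1 promoter, beside 14.0% of the 27025 genes in the table and 12.4% of its 32851 promoters. With the 250 bases before the start alone, 8 members held it, beside 11.5% of all genes. The 9 were *Nfe2l2*, *Srxn1*, *Prdx1*, *Mgst1* and *Txnrd1* of the 15 matched genes that rose, *Gclm* and *Sod1* of the 12 that fell, and *Gstm5* and *Ggct* of the 9 that were not called. A core in this window was thus present among genes that moved in either direction. The lines below give 10 bases on each side of the core for members outside their own transcribed exons, from *Nfe2l2*, *Prdx1* and *Txnrd1*, which rose, and from *Gclm* and *Sod1*, which fell; they are shown because the same core stands before start sites of genes of both directions. Each is written 5′ to 3′ on the strand of its gene, with the core or its reverse complement in capitals.
Nfe2l2: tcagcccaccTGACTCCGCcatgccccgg
Prdx1: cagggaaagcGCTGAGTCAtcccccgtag
Txnrd1: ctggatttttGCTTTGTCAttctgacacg
Gclm: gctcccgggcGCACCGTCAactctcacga
Sod1: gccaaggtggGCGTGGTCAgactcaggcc
The stretches lie at chr2:75704885-75704913 (minus strand), chr4:116685456-116685484 (plus strand), chr10:82859104-82859132 (plus strand), chr3:122245413-122245441 (plus strand) and chr16:90220696-90220724 (plus strand). The core began 240 bases before the start in *Nfe2l2*, inside an exon of the oppositely oriented *E030042O20Rik*, and 133, 92, 134 and 56 bases before it in *Prdx1*, *Txnrd1*, *Gclm* and *Sod1*. *Txnrd1* has 3 promoters in the table, and the one shown belongs to a start site inside the annotated gene (chr10:82833951-82897712, plus strand), not to its first. Only in *Nfe2l2* of these 5 does the gene's own strand read TGAC first, while the other 4 carry the reverse complement.

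Cystine import and glutathione synthesis held the member with the largest rise. *Slc7a11* (chr3:49892526-50443614, minus strand) encodes xCT, the subunit of the cystine/glutamate antiporter that brings in cystine. It was measured at 6041, 5621, 5449.7 and 5235 normalized counts in control TEMs and at 8731, 8631, 8884 and 8742 in PHGDH-deficient TEMs. All PHGDH-deficient samples lay within a narrow band far above the control samples, and the mean was 56.6% higher (log2 fold change 0.65 ± 0.032 SE, adjusted p = 1.58e-12). Across 19 other settings the log2 fold change was between 0.50 and 0.69, the lowest with the correction for GC content and exon length.

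*Gclc*, the catalytic subunit of glutamate-cysteine ligase, which makes the first bond of glutathione, was at 5498, 5412, 5842 and 5227 in control and 5977, 6014, 6389 and 6442 in PHGDH-deficient TEMs. The groups did not overlap, although the highest control and the lowest PHGDH-deficient samples were close (log2 fold change 0.18 ± 0.032 SE, adjusted p = 0.000153). *Gclm*, the modifier subunit of the same ligase, was at 30589.7, 32458, 33084 and 32211 in control and 29379.9, 30529, 31214 and 30439.8 in PHGDH-deficient TEMs. The lowest control sample, replicate 1, lay among the PHGDH-deficient samples, and the gene fell slightly (log2 fold change -0.078 ± 0.025 SE, adjusted p = 0.0172). The fall was not called without control replicate 2 (0.0518), control replicate 3 (0.0718) or PHGDH-deficient replicate 1 (0.0757), and it also missed the threshold when the samples were scaled to total reads (0.0532) or quantile normalized (0.201).

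*Gss*, glutathione synthetase, which adds the glycine, rose, with 2049 to 2148 normalized counts in control and 2315 to 2442 in PHGDH-deficient TEMs and no overlap (log2 fold change 0.18 ± 0.030 SE, adjusted p = 7.87e-05). Its exons overlap 395 bases of *Acss2* on the other strand, which had a mean of 1387 normalized counts, and the strand setting of the counting is not given in the sources used here. *Ggct*, which degrades gamma-glutamyl dipeptides, was near 207 normalized counts in both groups (log2 fold change 0.0058 ± 0.085 SE, adjusted p = 0.966).

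Of the glutathione peroxidases and the glutathione reductase, 2 of 3 were lower and none higher, beside 20.3% and 20.8% of all genes tested. *Gpx1* (chr9:108338903-108340343, plus strand), the abundant cytosolic glutathione peroxidase, was measured at 17050.1, 17644, 17779 and 18002 in control and 14596, 14428, 14327 and 14616 in PHGDH-deficient TEMs. The PHGDH-deficient samples were close to each other and all below the controls, and the mean fell by 17.7% (log2 fold change -0.28 ± 0.022 SE, adjusted p = 1.90e-09). *Gpx1* lies 11.6 Mb from *Cx3cr1* on chromosome 9, and whether sequence linked to the Cre allele plays a part was not tested. *Gpx4*, which reduces lipid hydroperoxides in membranes, was between 5156 and 5713 in control and between 4675 and 4956 in PHGDH-deficient TEMs, with no overlap (log2 fold change -0.16 ± 0.031 SE, adjusted p = 0.000282). *Gsr*, the reductase that returns oxidized glutathione to its reduced form, overlapped between the groups (log2 fold change -0.056 ± 0.026 SE, adjusted p = 0.0999); it was called lower without control replicate 1 (0.0112) and under quantile normalization (0.0219).

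Among the 8 glutathione transferases, which couple glutathione to electrophiles, 4 rose, none fell and 4 were not called. Across all genes tested, 20.8% were higher and 20.3% lower. *Gstm1* (chr3:108012255-108017973, minus strand), a mu-class transferase, was measured at 5941, 6106, 6292 and 6455 in control TEMs and at 8495, 7581, 7751 and 8541 in PHGDH-deficient TEMs. Replicates 1 and 4 of the PHGDH-deficient TEMs were the highest, and the lowest PHGDH-deficient sample still exceeded the highest control by a wide margin. The mean was 30.5% higher (log2 fold change 0.38 ± 0.035 SE, adjusted p = 1.89e-08).

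*Gstt2*, a theta-class enzyme of low abundance, was at 317, 294, 336 and 347 in control and 407, 376, 349 and 352 in PHGDH-deficient TEMs. The groups were separated by less than 2 normalized counts (log2 fold change 0.20 ± 0.071 SE, adjusted p = 0.0294), and the call did not hold without control replicate 2 (0.103), PHGDH-deficient replicate 1 (0.116) or PHGDH-deficient replicate 2 (0.0662). The membrane-bound *Mgst1* and the omega-class *Gsto1* differed less still. *Mgst1* overlapped between the groups (log2 fold change 0.093 ± 0.030 SE, adjusted p = 0.0167) and its call was lost without control replicate 2 (0.0835), PHGDH-deficient replicate 3 (0.052) or PHGDH-deficient replicate 4 (0.0601). *Gsto1* did not overlap (log2 fold change 0.067 ± 0.026 SE, adjusted p = 0.0425), but its call was lost without control replicate 1 (0.0547), control replicate 2 (0.118), PHGDH-deficient replicate 1 (0.0834), PHGDH-deficient replicate 2 (0.0545), PHGDH-deficient replicate 3 (0.0618) or PHGDH-deficient replicate 4 (0.123). *Gstm5*, *Gstp1*, *Gsta4* and *Mgst3* were not called, with log2 fold changes between -0.050 and 0.067, and *Gsta4* had fewer than 51 normalized counts in every sample.

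The thioredoxin and glutaredoxin genes split, with 2 higher, 4 lower and 2 not called. *Glrx* (chr13:75839868-75850154, plus strand), the cytosolic glutaredoxin that removes glutathione from protein thiols, was measured at 12007, 11526, 11617 and 11796 in control and 8494, 8787, 8693 and 8002 in PHGDH-deficient TEMs. This was the deepest fall among the 42 genes, with all PHGDH-deficient samples far below the controls. The mean fell by 27.6% (log2 fold change -0.47 ± 0.027 SE, adjusted p = 1.81e-11), and the log2 fold change stayed between -0.49 and -0.44 in 19 other settings.

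*Srxn1* (chr2:152105516-152111376, plus strand), sulfiredoxin, which repairs overoxidized peroxiredoxins and is a classical NRF2 target, was measured at 24909.5, 24766, 25059 and 25205 in control and 30354, 29254, 29076 and 30216 in PHGDH-deficient TEMs. The control samples were almost level and all 4 PHGDH-deficient samples stood above them (log2 fold change 0.25 ± 0.021 SE, adjusted p = 7.28e-09). *Txnrd1*, the cytosolic thioredoxin reductase, rose, with 19486 to 20421 normalized counts in control and 21608 to 22124 in PHGDH-deficient TEMs and no overlap (log2 fold change 0.12 ± 0.022 SE, adjusted p = 8.81e-05). Its mitochondrial counterpart *Txnrd2* went down, at 732, 861, 833 and 843 in control and 739, 681, 708 and 715 in PHGDH-deficient TEMs. Replicate 1 of the controls lay within the PHGDH-deficient range, so the groups overlapped (log2 fold change -0.20 ± 0.052 SE, adjusted p = 0.00358).

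*Txn1*, the cytosolic thioredoxin, was not called (log2 fold change -0.041 ± 0.023 SE, adjusted p = 0.165), and neither was *Glrx3*, a glutaredoxin of iron-sulfur handling (log2 fold change -0.0077 ± 0.039 SE, adjusted p = 0.896). *Txn2*, the mitochondrial thioredoxin, fell (log2 fold change -0.11 ± 0.034 SE, adjusted p = 0.0163), a call lost without control replicate 3 (0.0795) or PHGDH-deficient replicate 2 (0.0675). *Txnip*, which binds and inhibits thioredoxin, was abundant and fell slightly (log2 fold change -0.063 ± 0.021 SE, adjusted p = 0.0203); this call was lost without control replicate 3 (0.0532), PHGDH-deficient replicate 1 (0.0663) or PHGDH-deficient replicate 4 (0.0605).

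Of the 6 peroxiredoxins, 2 rose and 3 fell. *Prdx6* (chr1:161240112-161251219, minus strand), which takes its electrons from glutathione rather than thioredoxin, was measured at 8611, 8764, 8964 and 8880.2 in control and 10856, 10084, 10012 and 10768 in PHGDH-deficient TEMs. No sample overlapped, and replicates 1 and 4 of the PHGDH-deficient TEMs were again the highest (log2 fold change 0.24 ± 0.027 SE, adjusted p = 3.56e-07). *Prdx1*, by far the most abundant of the 42 transcripts, rose, with 215756 to 233886 normalized counts in control and 242368 to 255654 in PHGDH-deficient TEMs and no overlap (log2 fold change 0.15 ± 0.028 SE, adjusted p = 0.000228). Quantile normalization brought its log2 fold change to 0.065.

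*Prdx5*, found in mitochondria, peroxisomes and cytosol, was measured at 18738, 20802, 19079 and 19751 in control and 16824, 17293, 17219 and 16328 in PHGDH-deficient TEMs. All PHGDH-deficient samples were lower than all controls (log2 fold change -0.21 ± 0.028 SE, adjusted p = 3.97e-06). Its exons share 409 bases with *Trmt112* on the other strand, which had a mean of 839 normalized counts. *Prdx2*, the cytosolic relative of *Prdx1*, fell without overlap (log2 fold change -0.15 ± 0.030 SE, adjusted p = 0.000238), and its exons share 173 bases with *Junb* on the other strand, which had a mean of 6063 normalized counts. The mitochondrial *Prdx3* fell by little (log2 fold change -0.072 ± 0.027 SE, adjusted p = 0.037): its 4 PHGDH-deficient samples were between 2682 and 2687 normalized counts, but the call was lost without control replicate 2 (0.0765), control replicate 4 (0.11), PHGDH-deficient replicate 1 (0.064), PHGDH-deficient replicate 2 (0.0751), PHGDH-deficient replicate 3 (0.0704) or PHGDH-deficient replicate 4 (0.0717). *Prdx4* of the endoplasmic reticulum was not called (log2 fold change -0.056 ± 0.036 SE, adjusted p = 0.232), except without control replicate 1 (0.0428).

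All 3 genes for superoxide dismutases and catalase changed, in opposite directions. *Sod1* (chr16:90220754-90226329, plus strand), the copper-zinc enzyme of the cytosol, was measured at 7428, 7722, 8099 and 7930.0 in control TEMs and at 6299, 6135, 6453 and 6326 in PHGDH-deficient TEMs. Every PHGDH-deficient sample was lower, and the mean fell by 19.1% (log2 fold change -0.31 ± 0.027 SE, adjusted p = 1.23e-08). *Sod2*, the manganese enzyme of mitochondria, rose, with 7563 to 8429 normalized counts in control and 8613 to 9275 in PHGDH-deficient TEMs and no overlap (log2 fold change 0.16 ± 0.031 SE, adjusted p = 0.00026). A stretch of at most 193 bases in the *Sod2* transcript also occurs, at 95% identity or more, in 5 other listed genes whose counts sum to 24.6% of the total with *Sod2*, and the share of reads this could move was not tested. *Cat*, catalase, which breaks down hydrogen peroxide, rose without overlap (log2 fold change 0.12 ± 0.021 SE, adjusted p = 0.000112).

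*Nqo1* and *Sqstm1*, the members listed as further NRF2 targets, both rose, while the 20 NRF2 targets of the wider list split into 4 higher, 7 lower and 9 not called. By comparison, 20.8% of all genes tested were higher and 20.3% lower. Among genes with a mean of at least 1000 normalized counts the shares were 27.3% and 29.6%. *Nqo1*, a quinone reductase often read as a marker of NRF2 activity, was measured at 2125, 2139.9, 2144 and 2048 in control and 2341, 2163, 2366 and 2309 in PHGDH-deficient TEMs. The second PHGDH-deficient sample was close to the controls and the other 3 stood clearly above them (log2 fold change 0.12 ± 0.033 SE, adjusted p = 0.00642). *Sqstm1*, the autophagy receptor that also binds KEAP1, rose without overlap (log2 fold change 0.12 ± 0.021 SE, adjusted p = 9.03e-05).

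The membrane subunits of the NADPH oxidase moved apart. *Cybb* (chrX:9435252-9487771, minus strand), the catalytic NOX2 subunit, was measured at 72796, 69467, 66265 and 67706 in control and 85648, 84818, 83782 and 86429 in PHGDH-deficient TEMs. The groups did not overlap, and the mean was 23.3% higher (log2 fold change 0.30 ± 0.026 SE, adjusted p = 7.75e-09). *Cyba*, its partner in the membrane, was between 16143 and 18105 in control and between 15356 and 16204 in PHGDH-deficient TEMs, with overlap, and was called lower (log2 fold change -0.12 ± 0.030 SE, adjusted p = 0.00199). Under quantile normalization the adjusted p of *Cyba* was 0.0512. The cytosolic subunits *Ncf1* (log2 fold change -0.043 ± 0.021 SE, adjusted p = 0.116) and *Ncf4* (log2 fold change 0.0055 ± 0.025 SE, adjusted p = 0.883) were not called, though *Ncf1* passed as lower without control replicate 1 (0.038). *S100a8*, the neutrophil marker that was listed, was also higher in PHGDH-deficient TEMs (log2 fold change 0.23 ± 0.061 SE, adjusted p = 0.0044); its part in the rise of *Cybb*, a gene that neutrophils express as well, was not tested.

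**Figure D2:**
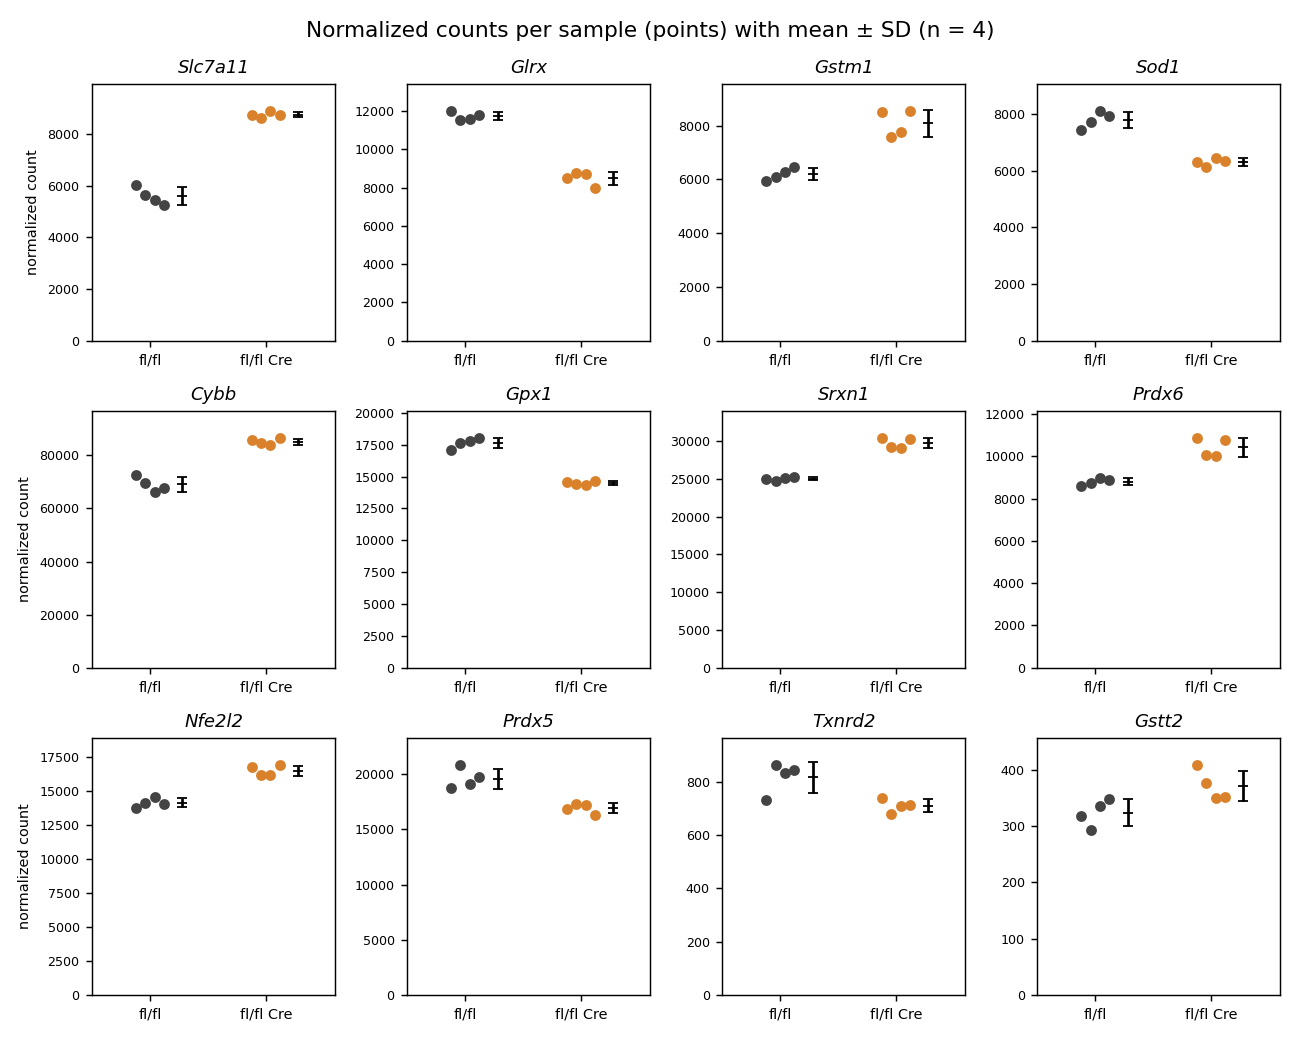
Normalized counts of the 12 called members with the largest absolute log2 fold change, per sample (points, replicates 1 to 4 from left to right; fl/fl, control TEMs; fl/fl Cre, PHGDH-deficient TEMs), with mean ± SD (n = 4); each vertical axis starts at 0. The genotypes are separated in each panel except *Txnrd2*, where control replicate 1 (732) lies inside the PHGDH-deficient range (681 to 739).

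Ratios of functionally paired genes within a sample do not depend on the scaling between samples. The pairs were chosen after the values were seen, so the ratios are descriptions with no test. *Slc7a11* over *Slc3a2*, the light and heavy chains of the cystine antiporter, was 0.614 to 0.734 in control and 0.979 to 1.01 in PHGDH-deficient TEMs, in normalized counts. *Gclc* over *Gclm* was 0.162 to 0.18 in control and 0.197 to 0.212 in PHGDH-deficient TEMs. The mRNA balance of this ligase lay further toward the catalytic subunit in each PHGDH-deficient sample than in any control. *Sod2* over *Sod1* was 0.934 to 1.09 in control and 1.33 to 1.49 in PHGDH-deficient TEMs, and *Cybb* over *Cyba* was 3.84 to 4.51 and 5.29 to 5.58. *Prdx6* over *Prdx5* was 0.421 to 0.47 and 0.581 to 0.659. In all 8 pairs examined the groups did not overlap, the ratio being higher in PHGDH-deficient TEMs. Each pair was written with the gene of the larger log2 fold change on top, so the common direction was set by that choice.

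**Figure D3:**
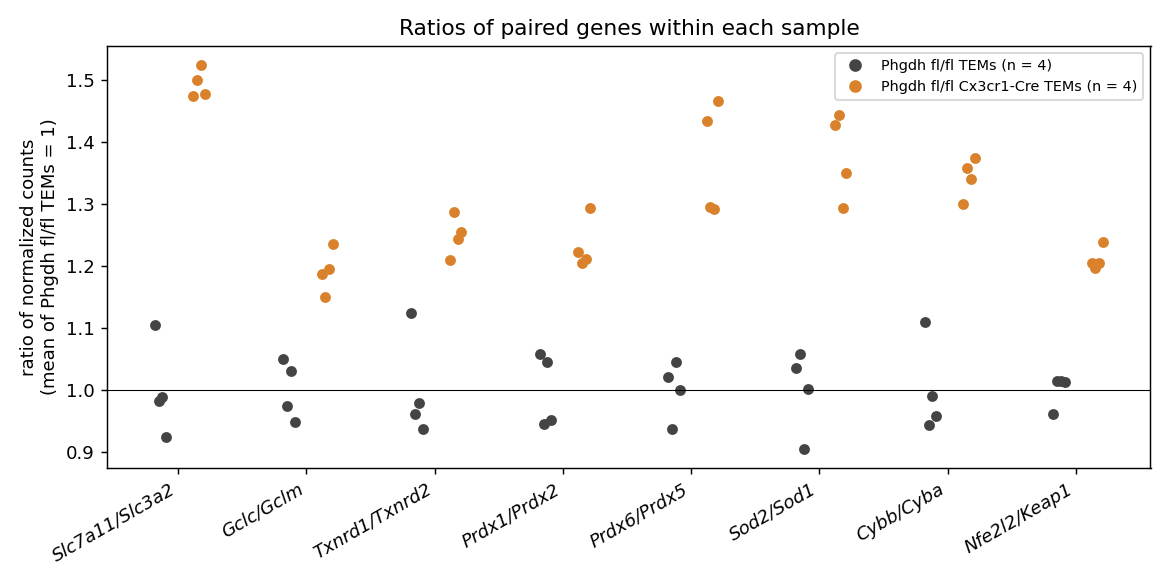
Ratio of normalized counts for 8 gene pairs in each sample, scaled so that the mean of the control TEMs is 1 (points are samples, n = 4 per genotype; the vertical axis does not start at 0). Each pair is written with the gene of the larger log2 fold change on top. The PHGDH-deficient samples lie above all control samples in every pair, with *Slc7a11* over *Slc3a2* the furthest, its unscaled ratio being 0.614 to 0.734 in control and 0.979 to 1.01 in PHGDH-deficient TEMs.

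To compare levels between genes, the recovered reads were divided by exon length and library size (FPKM). *Prdx1* was the highest of the 42 at 1705 ± 54.1 FPKM in control TEMs, followed by *Txnip* at 542, *Cyba* at 378, *Cat* at 366 and *Sqstm1* at 341 FPKM. Enzymes that remove peroxides were thus among the most abundant of these transcripts. *Slc7a11* was low by this measure, at 9.26 FPKM in control and 14.7 FPKM in PHGDH-deficient TEMs. *Ggct* (0.615 FPKM) and *Gsta4* (0.705 FPKM) were the lowest.

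**Figure D4:**
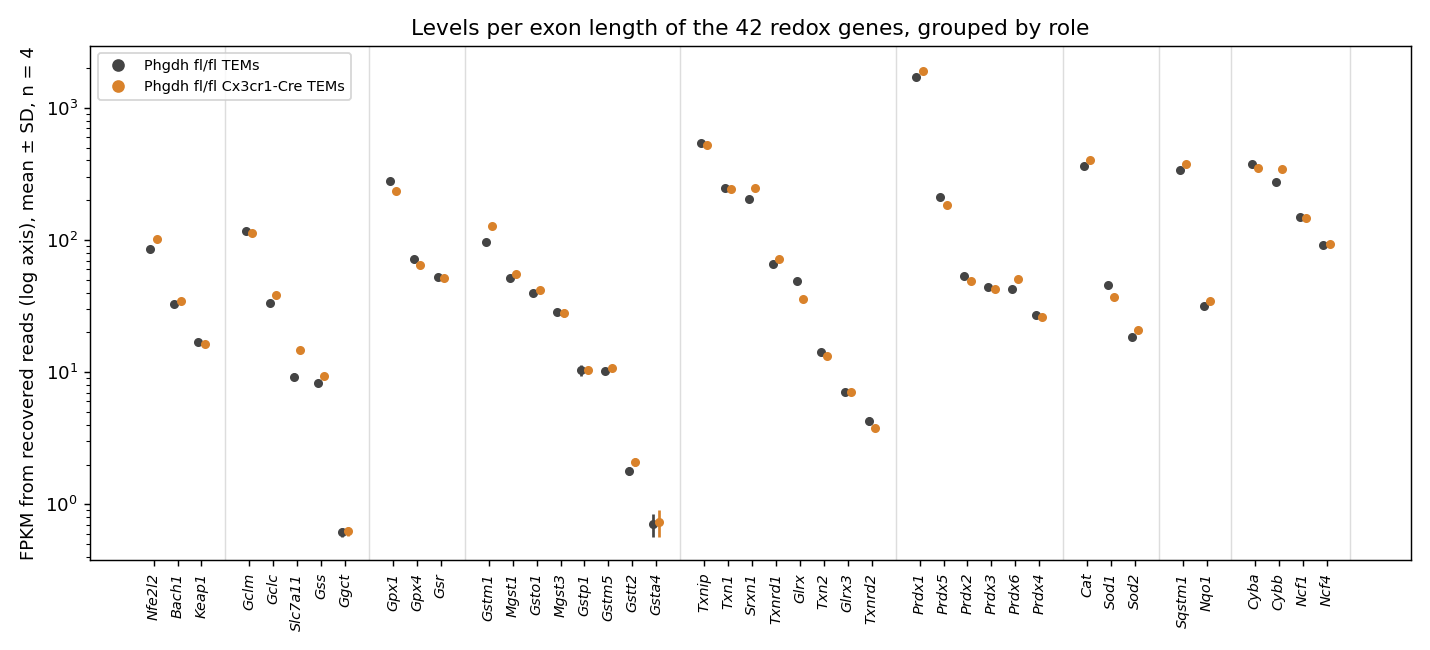
Level of each of the 42 genes in FPKM (log axis; points are means, bars SD, n = 4 per genotype), grouped by role and sorted by level. *Prdx1* stands at 1705 FPKM in control and 1909 FPKM in PHGDH-deficient TEMs, while *Ggct* and *Gsta4* are below 1 FPKM.

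The share of genes called higher changed with exon length across the whole table, which bears on how the members' directions are read. Among all genes tested, 9.55% of the shortest genes (up to 2916 bases, with the genes split into 3 classes of about equal number) were called higher and 23.9% lower, against 35.5% higher and 14.6% lower in the longest class (from 5495 bases). In the middle class 17.2% were higher and 22.4% lower. Of the 19 members in the shortest class, 6 rose and 5 fell, of the 15 in the middle class 6 rose and 6 fell, and of the 8 in the longest class 6 rose and 1 fell. *Slc7a11*, with 13922 exon bases, and *Cybb*, with 5808, belong to the longest class. *Gpx1* and *Cyba*, which fell, are in the shortest class, as is *Gstm1*, which rose. With a correction for GC content and exon length, chosen after the values were seen, 17 members were called higher and 11 lower, and the median log2 fold change of the members was 0.040, beside -0.022 for all genes. The correction moved the log2 fold change by over 1.5 times for 7 called members. It became smaller in *Bach1* (0.036), *Prdx3* (-0.035), *Txnrd1* (0.075), *Sod2* (0.076) and *Cyba* (-0.074), of which *Bach1* and *Prdx3* were no longer called, and larger in *Gsto1* (0.10) and *Gclm* (-0.13). With this correction *Txnip* also lost its call (limma, adjusted p = 0.0525), and *Keap1* was called lower (adjusted p = 0.0188).

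**Figure D5:**
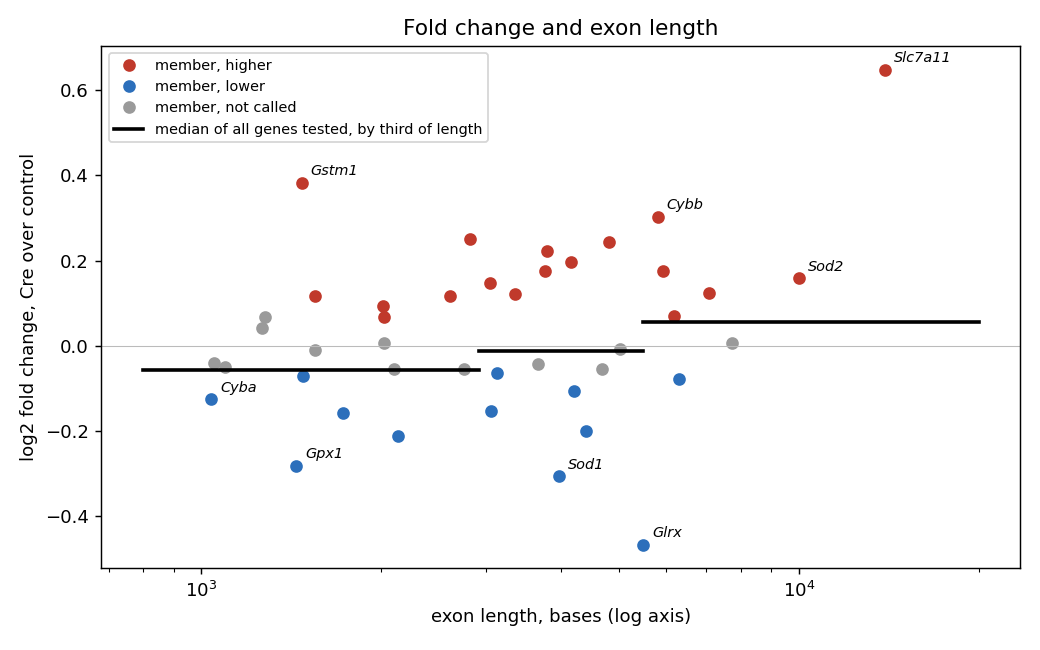
Log2 fold change of the 42 genes (PHGDH-deficient over control TEMs) against exon length in bases (log axis), colored by the limma call, with the median of all genes tested in each length class as black lines. The line goes from -0.058 in the shortest to 0.055 in the longest class, and *Slc7a11* and *Gstm1* lie well above it while *Glrx*, *Sod1* and *Gpx1* lie below.

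Other genes of the same pathways were called at a share near that of all genes. They were listed by role from general knowledge, with earlier results of these data known. Of 97 names 94 were in the table and 88 passed the filter, and 35 were called, 13 higher and 22 lower, or 39.8% beside 41.0% of all genes. Many of these genes were abundant, and among all genes with a mean of at least 1000 normalized counts 56.9% were called. The wider list was not split by level. Their median log2 fold change was -0.0024. The largest rises were in genes of low abundance. *Bach2*, a relative of *Bach1*, was at 10.2, 13.8, 14.5 and 5.72 in control and 19.1, 27.02, 19.3 and 25.3 in PHGDH-deficient TEMs (log2 fold change 1.03 ± 0.30 SE, adjusted p = 0.00959). *Cth*, which makes cysteine from cystathionine, was at 22.3, 9.20, 17.6 and 22.9 in control and 46.1, 29.1, 17.3 and 49.6 in PHGDH-deficient TEMs, with overlap (log2 fold change 0.91 ± 0.32 SE, adjusted p = 0.0264). Its call was lost without control replicate 2 (0.107), PHGDH-deficient replicate 1 (0.101) or PHGDH-deficient replicate 4 (0.114). *Gpx3*, the secreted glutathione peroxidase, rose, with 181 to 251 normalized counts in control and 264 to 329.7 in PHGDH-deficient TEMs and no overlap (log2 fold change 0.48 ± 0.094 SE, adjusted p = 0.000269).

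*Hvcn1*, the proton channel that balances the charge moved by the NADPH oxidase, rose (log2 fold change 0.44 ± 0.032 SE, adjusted p = 6.49e-10), as did *Ephx1*, an epoxide hydrolase (log2 fold change 0.32 ± 0.039 SE, adjusted p = 1.12e-06). The largest falls were in *Park7*, the oxidative stress sensor DJ-1 (log2 fold change -0.36 ± 0.032 SE, adjusted p = 1.58e-08), and in *Hmox1*, heme oxygenase, a target of both NRF2 and BACH1. *Hmox1* was at 93880.4, 93774, 94013 and 98737 in control and 79495, 81688, 81882 and 81205 in PHGDH-deficient TEMs. All PHGDH-deficient samples were below all controls (log2 fold change -0.23 ± 0.023 SE, adjusted p = 8.05e-08). It was 1 of 7 lower genes among the 20 further NRF2 targets of this list, of which 4 were higher and 9 not called. The shares of all genes tested were 20.8% higher and 20.3% lower. *Dpep2*, a membrane dipeptidase (log2 fold change -0.20 ± 0.057 SE, adjusted p = 0.00683), *Gstcd*, a protein with a transferase-like domain (log2 fold change -0.19 ± 0.059 SE, adjusted p = 0.0127), and *Rac1*, the GTPase that activates the oxidase (log2 fold change -0.15 ± 0.025 SE, adjusted p = 4.28e-05), were the other named falls. Of the 18 selenoproteins and selenocysteine insertion genes on this list, 1 rose and 3 fell. That made 22.2% called, beside 41.0% of all genes tested, with 20.8% higher and 20.3% lower.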

How the data were processed

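RNA-seq was done on 4 *Phgdh* fl/fl and 4 *Phgdh* fl/fl *Cx3cr1*-Cre samples, grouped by the submitters' titles. The authors made directional, single-end libraries, mapped reads to mm10 with TopHat2, counted them with HTSeq 0.6 and ran DESeq2. Each value that the authors deposited for a sample is a signal: the gene's read count over that sample's size factor, although it is called FPKM. Whole reads were recovered for 100% of 144353 values above 0, within 0.00072 of a whole read. Deposited fold changes, p-values and means were not used.

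log2(normalized count + 1) was fitted with limma 3.58.1 (lmFit, eBayes with trend; R 4.3.3) over genes with a mean of at least 10, two-sided, with Benjamini-Hochberg adjustment. This scale understates changes of low genes. Alternatives were another pseudocount, 2 other filters, 2 other scalings, no trend, a replicate block, edgeR 4.0.16 and DESeq2 1.42.0 on recovered reads, each sample left out, and a GC and length correction added after the values were seen. Fits were tested on simulated data. The members and lists were chosen with earlier results of these data known. Full values are given for the regulators, the 12 called members with the largest absolute log2 fold change, *Gclc*, *Gclm* and *Nqo1*. Of the wider list, the 5 highest and 5 lowest called genes are named, with full values for *Bach2*, *Cth* and *Hmox1*. Similar transcripts were searched with blastn 2.17.0. Exon lengths and positions are from GENCODE (GRCm38), and promoters from RefSeq. The depth was 38219563 to 47027420 reads in genes per sample.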

Additional observations from a re-analysis of the deposited data

Results flagged for a closer look

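For 3 members, 1 sample was far from the other 3 of its group, among 84 groups of 4 tested with Dixon's criterion, which chance alone meets in about 1 group in 20. *Prdx4* stood at 2508 normalized counts in PHGDH-deficient replicate 1, beside 2305 to 2313 in the others. *Cyba* stood at 16204 in the same sample, beside 15356 to 15477 in the others, and it was the PHGDH-deficient sample that overlapped the controls. *Cat* stood at 45433 in PHGDH-deficient replicate 3, beside 44735 to 44850.0 in the others, all above the highest control sample.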

How the results depend on the processing

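In 19 other settings the number of members called was between 22 and 32, beside 30, and no count moved by more than 1.5 times. Of the 30 called members 21 were called in every setting, 14 higher and 7 lower, and no called member changed direction. *Bach1*, *Gclm*, *Gsto1*, *Gstt2*, *Mgst1*, *Txn2*, *Txnip*, *Prdx3* and *Cyba* were lost in at least 1 setting, and the causes were not tested. *Keap1*, *Gsr*, *Prdx4* and *Ncf1* were not called but passed in at least 1 setting. The lowest count, 22, came without the mean-variance trend. Leaving out 1 sample gave 25 to 32 members and 4967 to 5944 of all genes, most without control replicate 1. edgeR called 29 members and 5608 genes, and DESeq2 27 and 5066. The median log2 fold change of the members was between -0.023 and 0.040, and that of all genes between -0.022 and 0.013. With the replicate number as a replicate block, 28 members (17 higher and 11 lower) and 5597 genes were called, and *Gsto1* (adjusted p = 0.0503) and *Prdx3* (0.0502) were lost. The deviations of same-numbered samples correlated at 0.063, 0.098, 0.13 and 0.078. Differently numbered samples were not compared in this way, so whether same-numbered samples share more than a number was not tested. With the block and the GC and length correction together, 29 members were called. *Gsta4* and *Ggct* had the lowest mean counts of the members, 39.4 and 207, and the largest standard errors, 0.20 and 0.085.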
